A study of Homo sapiens with 10 samples.

Results

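A set of 10 genes of the TNF superfamily, 4 ligands and 6 receptors, were followed across 5 treatment groups of 12Z cells. They are the listed genes TNF, TNFSF9, TNFSF10, TNFSF15, TNFRSF1A, TNFRSF1B, TNFRSF9, TNFRSF10A, TNFRSF11B and TNFRSF14, matched by symbol to 10 of the 62750 gene IDs in the deposited count table. All 10 were found. The genes were listed by name with earlier results of these data known, so their share of calls is no unselected sample of genes. 12Z is an established immortalized human line of epithelial cells from peritoneal endometriosis. Cells were starved overnight in medium with 2% charcoal-stripped serum, then given DMSO or an inhibitor for 30 minutes, and then IL1β at 10 ng/ml for 6 h. The groups were vehicle (DMSO and no IL1β), IL1β after DMSO, and IL1β after an inhibitor: CDD-2728 at either 1 or 10 µM, or CDD-3013 at 1 µM. Both compounds are described by the submitters as inhibitors of JNK, a stress-activated kinase. No group received an inhibitor without IL1β, all libraries came from 1 cell line, and every group held 2 libraries.

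TNF superfamily ligands are mostly trimeric proteins that start on the cell membrane and can be shed, and each binds one or a few receptors of the matching receptor family. Some receptors carry a death domain that can lead to caspase activation, while others bind TRAF adaptors and feed NF-κB and MAP kinase signalling. A further class, the decoys, binds ligand without signalling. In endometriosis, TNF and IL1β are among the cytokines found in peritoneal fluid around lesions. NF-κB and AP-1, the factor that JNK acts on through its JUN subunits, are the classical transcription factors downstream of IL1β.

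Poly(A) RNA libraries held 16312600 to 19479416 counts each. Levels are given as CPM, counts scaled to the size of each library with TMM factors. Of the defining markers of the cell type, the keratins KRT8, KRT18 and KRT19 averaged 6764, 2047 and 1123 CPM over the 10 libraries, but the epithelial surface marker EPCAM averaged 0.0728 CPM and CLDN4 0.582 CPM. All 8 stromal and all 6 mesothelial markers were above 1 CPM, led by COL1A1 at 2797 CPM and LRRN4 at 464 CPM. Of 10 immune markers, 8 averaged under 1 CPM and CD3E and FCGR3B were among those with no count in any library. The pan-leukocyte marker PTPRC averaged 0.190 CPM, and the highest immune marker was CD14 at 18.9 CPM. The summed immune level ran from 16.4 to 27.9 CPM across libraries. By group it averaged 17.4 CPM with vehicle, 21.6 CPM with IL1β, 24.5 and 19.8 CPM with CDD-2728 at 1 and 10 µM, and 25.9 CPM with CDD-3013. Other marker sums moved too. The 6 endothelial markers, led by KDR, summed to 41.8 CPM with vehicle and 22.3 CPM with IL1β. With CDD-2728 at 1 and 10 µM they summed to 32.0 and 56.3 CPM, and with CDD-3013 to 34.2 CPM. The 8 epithelial markers summed to 9683, 9066, 9777, 8432 and 12860 CPM in the same order. In that order the 8 stromal markers summed to 7031, 7176, 7837, 6665 and 7724 CPM. For the 6 mesothelial markers the sums were 709, 772, 873, 646 and 956 CPM. The part of these markers in the results was not tested. In bulk RNA, fewer cells expressing a gene and less RNA per cell cannot be told apart. Nothing states that the libraries of a group were separate cultures, so p-values here reflect only how far the sampled libraries spread, and that spread may be technical.

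The sequences just upstream of the start sites are shown because members that were higher and members that were lower with the inhibitors can be set side by side. They come from RefSeq promoter windows of GRCh38.p14, read 5′ to 3′ on the gene's strand over the 250 bases before the annotated start. The first 4 are printed without the bases that GENCODE 29 places in exons. Capitals mark matches, on either strand, to a κB pattern (GGG, any 5 bases, then CC) or an AP-1 pattern TGANTCA, which do not overlap each other in these windows. Of 35116 promoter windows of that length, 54.4% held the κB pattern and 6.6% the AP-1 pattern. Windows were found for 8 members, not for TNFRSF10A and TNFRSF11B. In their full windows, exon bases included as in the share over all promoters, 6 of the 8 held a κB match and 2, TNFSF15 and TNFRSF9, an AP-1 match. The window of TNFRSF14 lies wholly in exons, and the matches of TNFRSF9 lie in the 94 exon bases of its window, so the latter are printed only as short stretches of exon sequence. A match is a string of letters and not a measured binding site.
TNF, chr6:31575315-31575564, plus strand: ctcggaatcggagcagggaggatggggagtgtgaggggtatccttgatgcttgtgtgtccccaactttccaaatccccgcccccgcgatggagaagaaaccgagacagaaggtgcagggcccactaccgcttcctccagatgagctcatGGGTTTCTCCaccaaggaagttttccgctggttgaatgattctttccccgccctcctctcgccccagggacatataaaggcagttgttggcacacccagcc
TNFSF10, chr3:172523508-172523680, minus strand: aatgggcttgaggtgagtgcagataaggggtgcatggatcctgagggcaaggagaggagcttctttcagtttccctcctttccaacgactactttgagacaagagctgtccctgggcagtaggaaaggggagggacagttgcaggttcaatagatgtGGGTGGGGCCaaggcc
TNFSF15, chr9:114792531-114792780, minus strand: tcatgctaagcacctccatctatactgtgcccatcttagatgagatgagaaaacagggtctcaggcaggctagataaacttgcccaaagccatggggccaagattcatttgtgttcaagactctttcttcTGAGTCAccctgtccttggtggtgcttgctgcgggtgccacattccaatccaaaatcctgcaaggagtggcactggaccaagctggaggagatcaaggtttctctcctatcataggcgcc
TNFRSF1B, chr1:12166741-12166942, plus strand: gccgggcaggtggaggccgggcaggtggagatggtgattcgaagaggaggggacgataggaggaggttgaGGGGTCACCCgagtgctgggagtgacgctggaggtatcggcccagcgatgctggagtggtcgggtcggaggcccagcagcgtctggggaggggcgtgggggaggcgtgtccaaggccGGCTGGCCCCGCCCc
TNFRSF9, chr1:7940894-7940922, minus strand, around its κB matches: agctgtggtGGGAATTTCCCatgagaccc
TNFRSF9, chr1:7940868-7940892, minus strand, around its AP-1 match: gcccctggcTGAGTCAccgcactcc

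In TNF the κB match lay 101 to 92 bases before the start, and in TNFSF10 93 to 84 bases. The AP-1 match lay 120 to 114 bases before the start in TNFSF15 and 44 to 38 bases before it in TNFRSF9, where the letters were TGAGTCA in both. TNFRSF9 also held GGGAATTTCC, 74 to 65 bases before the start, overlapping a match to the same pattern on the other strand. The RefSeq start of TNFSF15 is not among its GENCODE 29 transcript starts, and the windows of TNFSF15, TNFRSF9 and TNFRSF14 lie inside the longer GENCODE genes. TNFRSF1A held neither pattern in its window, which says only that these letters are not there.

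IL1β raised 8 of the 10 members over vehicle and no member fell. The 8 were TNF, TNFSF9, TNFSF10, TNFSF15, TNFRSF1A, TNFRSF1B, TNFRSF9 and TNFRSF11B. Among all 15740 tested genes, 32.6% were called in this comparison at an adjusted p under 0.05, 17.6% higher and 15.0% lower. The median log2 change of the members was 1.47, against -0.01 over all tested genes. No member was lower in edgeR's quasi-likelihood test at an unadjusted p under 0.05 or in DESeq2 either. TNFRSF10A and TNFRSF14 did not pass. All 10 members passed the filter on low counts, but TNF passed it through the 10 µM CDD-2728 and CDD-3013 groups only, and TNFSF15 through the 4 groups that received IL1β. The calls of TNF and TNFSF15 against vehicle are therefore a description, as are the count of 8 and the median that include them. With library totals in place of TMM factors, the median of all genes moved to -0.18, the calls over all genes were 1625 higher and 4726 lower instead of 2768 and 2360, and 7 members were called.

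The inhibitors divided the members. Against IL1β alone, TNFSF10, TNFRSF1B and TNFRSF14 were higher and TNFRSF9 was lower in every inhibitor arm. With 1 µM CDD-2728, 4 members were higher and 2 lower, where 4.59% of tested genes were called in either direction, 2.03% higher and 2.56% lower. With 10 µM CDD-2728, 4 were higher and 1 lower, where 31.5% were called, 15.6% higher and 15.9% lower. With 1 µM CDD-3013, 5 were higher and 3 lower, where 36.4% were called, 19.0% higher and 17.3% lower. The median log2 change of the members was 0.03, 0.22 and 0.37 in that order, against 0.00, 0.01 and -0.01 over all tested genes. The 3 arms share the IL1β libraries, so their changes are not independent of each other.

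**Figure D1:**
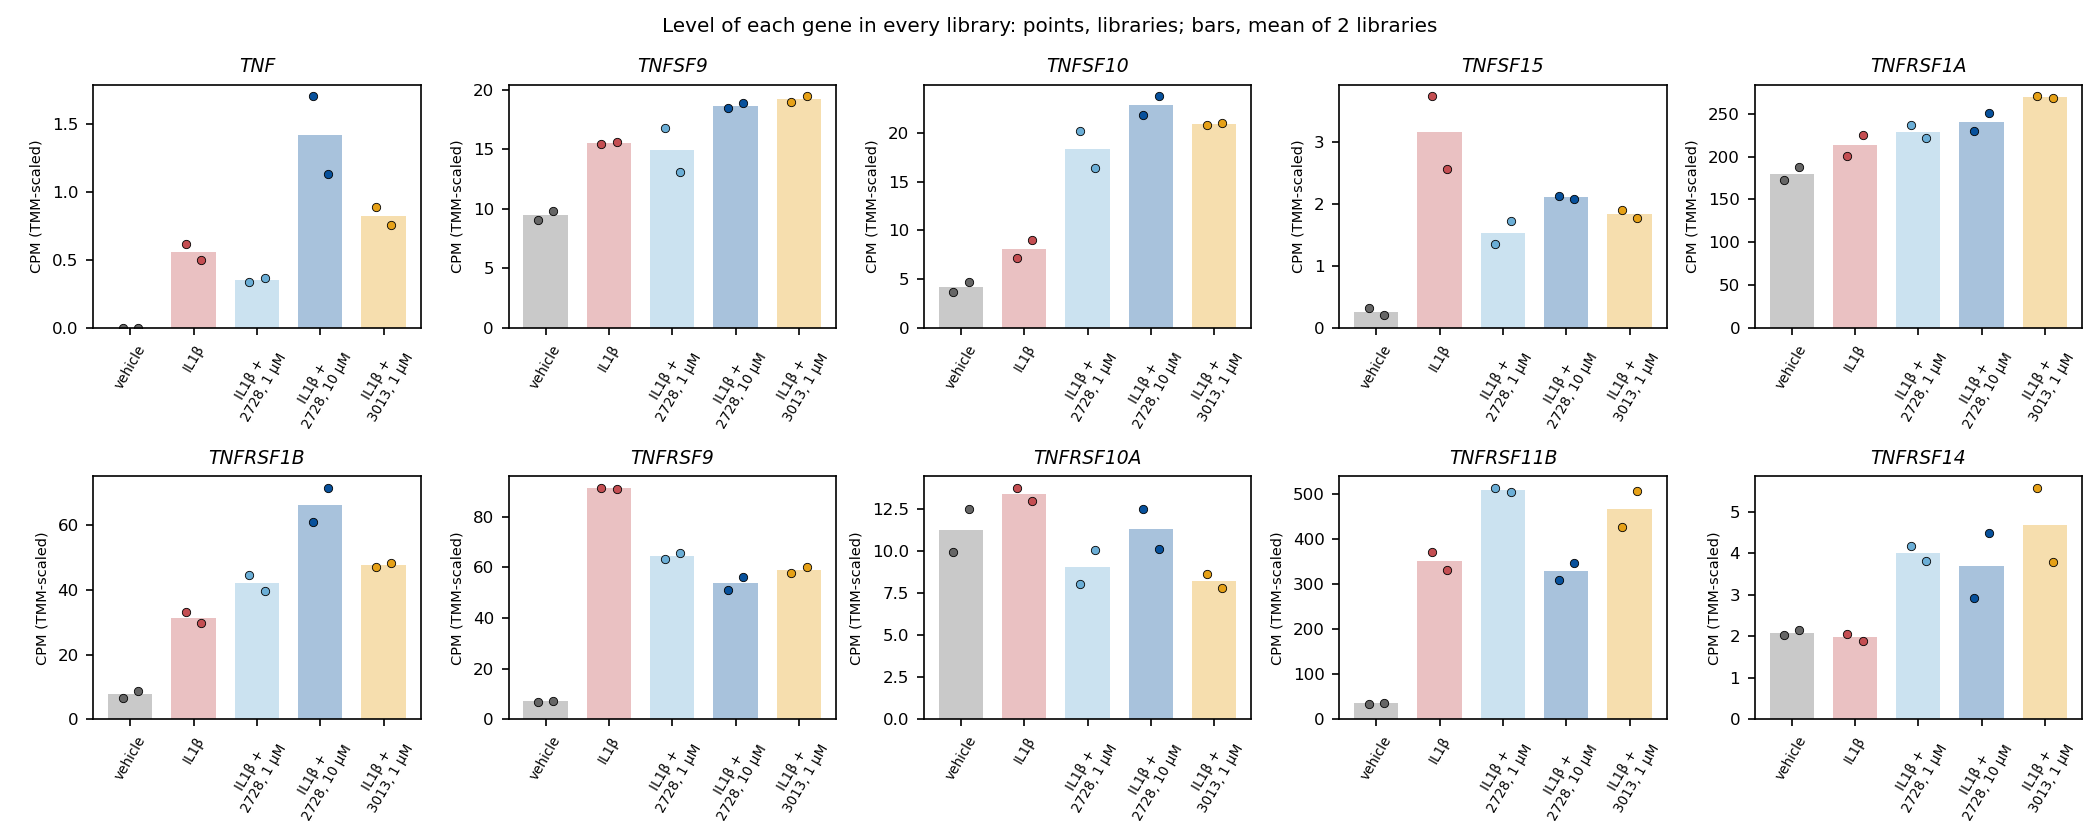
Level of each member in CPM (vertical axes from 0, a separate scale for each gene) in the 5 groups, with points for libraries and bars for the mean of 2 libraries. TNF had no count in the vehicle libraries, TNFRSF9 was highest with IL1β alone at 91.4 and 91.1 CPM, and TNFSF10 was highest in the inhibitor arms, at 16.4 to 23.8 CPM.

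TNF, the founding ligand of the family, lies at chr6:31575567-31578336 on the plus strand (GRCh38, GENCODE 29; 4 exon blocks, 1676 exon bases). It was close to the limit of detection. No read was counted in either vehicle library, 11 and 8 were counted with IL1β, 6 and 6 with 1 µM CDD-2728, 32 and 19 with 10 µM CDD-2728, and 15 and 12 with CDD-3013. The IL1β libraries were thus at 0.615 and 0.502 CPM, the 1 µM CDD-2728 libraries at 0.338 and 0.370 CPM, the 10 µM libraries at 1.71 and 1.13 CPM and the CDD-3013 libraries at 0.890 and 0.758 CPM. The groups did not overlap, with 10 µM CDD-2728 highest and vehicle lowest. With 3 counts over the group taken as the upper limit of the vehicle group, the TNF level with IL1β was 7.73-fold that limit. The counting error of the IL1β libraries is not included in this value. TNF was called higher with IL1β than with vehicle (edgeR adjusted p = 0.000379). That call is a description, since neither group met the filter's cutoff in both libraries.

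Only with 10 µM CDD-2728 and with CDD-3013 did both libraries meet the filter's cutoff for TNF, so calls there are a description. Against IL1β alone, the count ratio of TNF was 2.56 with 10 µM CDD-2728 (95% counting interval 1.48 to 4.59). The fitted log2 change there was 1.34 ± 0.49 (SE; edgeR adjusted p = 0.0344), and TNF was called higher. That call was lost in DESeq2 (adjusted p = 0.124), without a filter (0.0708) and without any 1 of the 4 libraries, with adjusted p-values from 0.0558 (without 10 µM replicate 2) to 0.286 (without 10 µM replicate 1). The ratio was 0.629 (0.279 to 1.37) with 1 µM CDD-2728 and 1.47 (0.788 to 2.80) with CDD-3013, and neither change passed the test (edgeR adjusted p = 0.604 and 0.441). These intervals cover counting error only.

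TNFSF10, which encodes TRAIL, the ligand of the death receptors TNFRSF10A and TNFRSF10B, lies at chr3:172505508-172523507 on the minus strand (7 exon blocks, 3473 exon bases). Its vehicle libraries were at 3.69 and 4.75 CPM and its IL1β libraries at 7.15 and 8.97 CPM. With 1 µM CDD-2728 it was at 20.2 and 16.4 CPM, with 10 µM at 21.9 and 23.8 CPM, and with CDD-3013 at 20.8 and 21.0 CPM. The 6 inhibitor libraries all lay above both IL1β libraries, which lay above both vehicle libraries. IL1β raised TNFSF10 by 0.93 ± 0.18 on the log2 scale (edgeR adjusted p = 0.000214). Over IL1β alone it rose by a further 1.19 ± 0.15 with 1 µM CDD-2728 (1.72e-05), 1.50 ± 0.15 with 10 µM (3.73e-08) and 1.38 ± 0.15 with CDD-3013 (5.49e-07), each an adjusted p from edgeR. These 4 calls were kept under all 11 alternatives run for each.

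TNFSF9, the 4-1BB ligand, pairs with TNFRSF9 and lies at chr19:6530999-6535928 on the plus strand (3 exon blocks, 1665 exon bases). It was at 9.08 and 9.80 CPM with vehicle and 15.5 and 15.6 CPM with IL1β. The inhibitor libraries were at 16.8 and 13.1 CPM (1 µM CDD-2728), 18.5 and 18.9 CPM (10 µM) and 18.9 and 19.5 CPM (CDD-3013). Vehicle lay apart from all other groups, and only the 1 µM CDD-2728 libraries overlapped those of IL1β. TNFSF9 rose 1.65-fold with IL1β, by 0.72 ± 0.14 on the log2 scale (edgeR adjusted p = 0.000154). Against IL1β alone its log2 change was -0.06 (95% interval -0.33 to 0.22) with 1 µM CDD-2728, 0.26 (-0.01 to 0.53) with 10 µM and 0.30 (0.03 to 0.58) with CDD-3013, and none passed (edgeR adjusted p = 0.865, 0.113 and 0.061).

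TNFSF15, also called TL1A, is the ligand of the death-domain receptor TNFRSF25 and lies at chr9:114784635-114806126 on the minus strand (4 exon blocks, 7889 exon bases). It was at 0.323 and 0.204 CPM with vehicle and at 3.74 and 2.57 CPM with IL1β. With inhibitor it was at 1.35 and 1.73 CPM (1 µM CDD-2728), 2.13 and 2.09 CPM (10 µM) and 1.90 and 1.77 CPM (CDD-3013). All 6 inhibitor libraries lay between the vehicle and the IL1β libraries. IL1β raised it 11.6-fold, by 3.54 ± 0.50 on the log2 scale (edgeR adjusted p = 2.22e-07). Neither vehicle library met the filter's cutoff of 0.559 CPM, so this call is a description.

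Against IL1β, TNFSF15 fell by 0.79 ± 0.31 on the log2 scale with CDD-3013 (edgeR adjusted p = 0.0432). The call was lost with no filter (adjusted p = 0.0979), in DESeq2 (0.122) and without IL1β replicate 1 (0.42), CDD-3013 replicate 1 (0.111) or CDD-3013 replicate 2 (0.168). With 1 µM CDD-2728 its log2 change was -1.05 ± 0.32 (edgeR adjusted p = 0.0513) and with 10 µM it was -0.59 ± 0.30 (0.13). The first passed with library totals (adjusted p = 0.0498) and without 1 µM CDD-2728 replicate 2 (0.048).

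The receptors of TNF itself were both called higher with IL1β and with CDD-3013, and with CDD-2728 only TNFRSF1B was called. Whether their changes differ in size was not tested. TNFRSF1A, the broadly expressed death-domain receptor (chr12:6328757-6342114, minus strand, 4005 exon bases), was at 172 and 188 CPM with vehicle and 201 and 226 CPM with IL1β. It was at 236 and 222 CPM with 1 µM CDD-2728, 230 and 250 CPM with 10 µM and 271 and 268 CPM with CDD-3013. Vehicle was lowest and CDD-3013 highest, with no overlap of either with another group. TNFRSF1A rose by 0.25 ± 0.08 on the log2 scale with IL1β (edgeR adjusted p = 0.0115), a call lost with library totals (0.07, adjusted p = 0.449), without vehicle replicate 1 (adjusted p = 0.129) and without IL1β replicate 2 (0.24). Against IL1β it rose by 0.34 ± 0.08 with CDD-3013 (edgeR adjusted p = 0.000848), while the changes with CDD-2728 were 0.11 ± 0.08 at 1 µM (0.475) and 0.17 ± 0.08 at 10 µM (0.0762). The last of these passed with library totals (0.23, adjusted p = 0.0159), with the stricter filter (0.0426) and when only the 4 libraries compared were fitted (0.0246).

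TNFRSF1B, the second TNF receptor, binds TRAF2 and has no death domain (chr1:12167003-12209228, plus strand, 10 exon blocks, 3766 exon bases). It was at 6.73 and 8.94 CPM with vehicle and 33.1 and 29.7 CPM with IL1β. The inhibitor libraries were at 44.5 and 39.8 CPM with 1 µM CDD-2728, 61.1 and 71.7 CPM with 10 µM and 47.1 and 48.3 CPM with CDD-3013. No group overlapped another, and 10 µM CDD-2728 was highest. IL1β raised TNFRSF1B 4.03-fold, by 2.01 ± 0.13 on the log2 scale (edgeR adjusted p = 1.09e-11). Over IL1β it rose further by 0.42 ± 0.11 with 1 µM CDD-2728 (0.0239), by 1.08 ± 0.11 with 10 µM (5.34e-08) and by 0.60 ± 0.11 with CDD-3013 (0.00016), each an edgeR adjusted p. The call at 1 µM CDD-2728 was lost without IL1β replicate 1 (adjusted p = 0.0746), IL1β replicate 2 (0.237) or 1 µM CDD-2728 replicate 1 (0.235).

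TNFRSF9, also called 4-1BB or CD137, is a costimulatory receptor best known on activated T cells (chr1:7915894-7943165, minus strand, 11 exon blocks, 6331 exon bases). It was at 7.01 and 7.35 CPM with vehicle and at 91.4 and 91.1 CPM with IL1β. With 1 µM CDD-2728 it was at 63.3 and 65.7 CPM, with 10 µM at 51.2 and 56.2 CPM, and with CDD-3013 at 57.7 and 60.2 CPM. No group overlapped another, and all inhibitor libraries lay between vehicle and IL1β. TNFRSF9 rose 12.7-fold with IL1β, by 3.67 ± 0.12 on the log2 scale (edgeR adjusted p = 3.96e-19). Against IL1β it fell by 0.50 ± 0.09 with 1 µM CDD-2728 (0.000219), by 0.77 ± 0.09 with 10 µM (8.57e-08) and by 0.63 ± 0.09 with CDD-3013 (3.1e-06), each an edgeR adjusted p. These 4 calls were kept under all 11 alternatives run for each. The T cell marker CD3E had no count in any library, and the cell source of the TNFRSF9 reads was not tested.

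TNFRSF11B encodes osteoprotegerin, a secreted decoy receptor that binds TRAIL and the osteoclast factor RANKL (chr8:118923557-118952200, minus strand, 6 exon blocks, 2827 exon bases). It was at 35.3 and 36.1 CPM with vehicle and 372 and 331 CPM with IL1β. With 1 µM CDD-2728 it was at 514 and 504 CPM, with 10 µM at 310 and 346 CPM, and with CDD-3013 at 426 and 507 CPM. Both 1 µM arms lay above IL1β alone, the 10 µM libraries overlapped it, and vehicle lay apart from all others. TNFRSF11B rose 9.85-fold with IL1β, by 3.30 ± 0.09 on the log2 scale (edgeR adjusted p = 2.29e-18). Against IL1β it rose by 0.53 ± 0.08 with 1 µM CDD-2728 (0.000181) and by 0.41 ± 0.08 with CDD-3013 (0.000404), each an edgeR adjusted p. With 10 µM CDD-2728 its change was -0.10 (95% interval -0.27 to 0.07, edgeR adjusted p = 0.377).

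TNFRSF10A, death receptor 4, is a TRAIL receptor with a death domain (chr8:23190452-23225126, minus strand, 11 exon blocks, 2951 exon bases). It was at 9.96 and 12.5 CPM with vehicle and 13.8 and 12.98 CPM with IL1β. With inhibitor it was at 8.05 and 10.1 CPM (1 µM CDD-2728), 12.5 and 10.1 CPM (10 µM) and 8.61 and 7.77 CPM (CDD-3013). All 6 inhibitor libraries lay below both IL1β libraries. The IL1β change of 0.26 (95% interval -0.05 to 0.57) did not pass (edgeR adjusted p = 0.201). TNFRSF10A fell by 0.71 ± 0.16 on the log2 scale with CDD-3013 (edgeR adjusted p = 0.00136) and by 0.57 ± 0.16 with 1 µM CDD-2728 (0.0383), while its change with 10 µM was -0.24 ± 0.15 (0.242). The 1 µM call was lost in DESeq2 (adjusted p = 0.0635) and without IL1β replicate 1 (0.301), IL1β replicate 2 (0.133) or 1 µM CDD-2728 replicate 1 (0.41). The gene has similar neighbours in TNFRSF10B, TNFRSF10C and TNFRSF10D, and shares 224 exon bases (7.6%) with its antisense gene TNFRSF10A-AS1 and 266 (9.0%) with AC100861.1 on the opposite strand.

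TNFRSF14, or HVEM, is the receptor of TNFSF14 and also binds the inhibitory receptor BTLA (chr1:2555639-2565382, plus strand, 7 exon blocks, 6219 exon bases). It was at 2.03 and 2.15 CPM with vehicle and 2.07 and 1.88 CPM with IL1β. The inhibitor libraries were at 4.17 and 3.83 CPM (1 µM CDD-2728), 2.93 and 4.48 CPM (10 µM) and 5.58 and 3.79 CPM (CDD-3013). Vehicle and IL1β overlapped, and all 6 inhibitor libraries lay above both. The IL1β change was -0.08 (95% interval -0.69 to 0.54, edgeR adjusted p = 0.877). Over IL1β, TNFRSF14 rose by 1.01 ± 0.28 with 1 µM CDD-2728 (0.0336), 0.89 ± 0.28 with 10 µM (0.0162) and 1.25 ± 0.28 with CDD-3013 (0.000935), each an edgeR adjusted p on a log2 change. The 1 µM call was lost without IL1β replicate 1 (adjusted p = 0.19), IL1β replicate 2 (0.205) or 1 µM CDD-2728 replicate 1 (0.205), and the 10 µM call without IL1β replicate 1 (0.0659), IL1β replicate 2 (0.0959) or 10 µM replicate 2 (0.249). TNFRSF14-AS1 shares 831 bases, 13.4%, of its exons on the opposite strand. The strand setting of the counting is not given in the sources used here, so reads of these antisense pairs cannot be told apart.

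**Figure D2:**
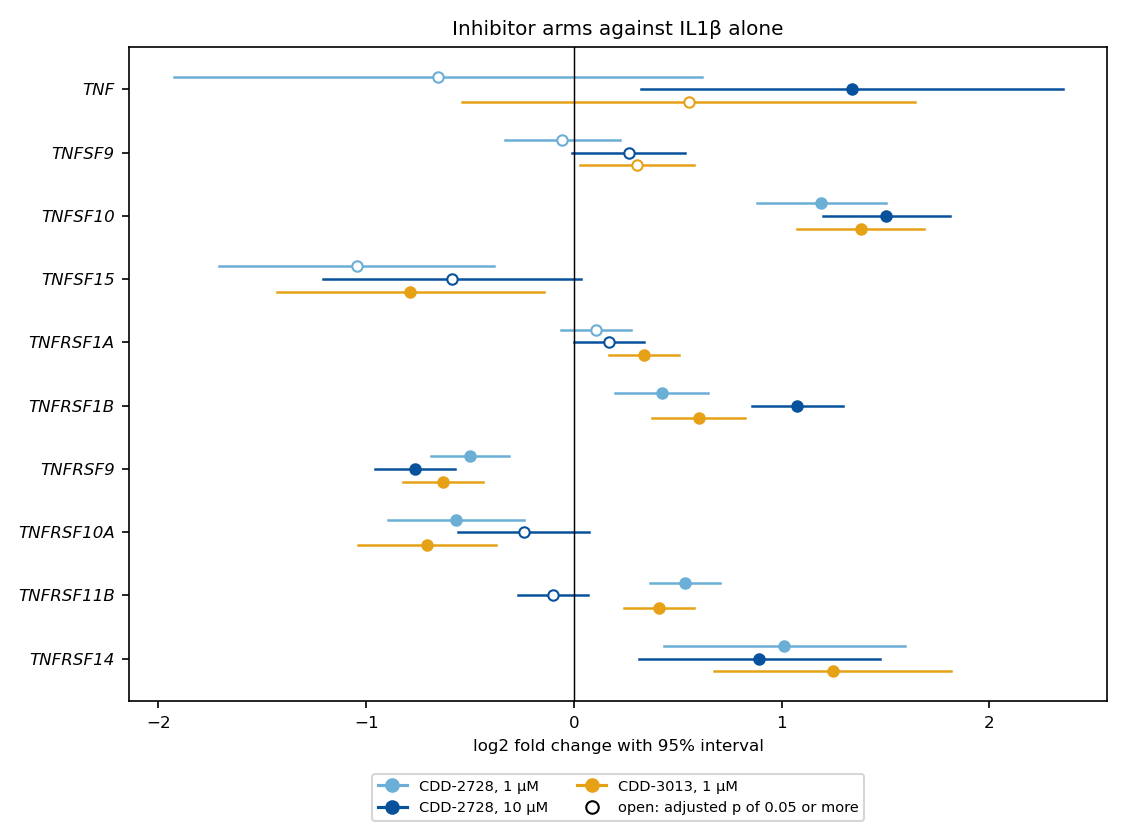
Log2 fold change of each member against IL1β alone with its 95% interval, for the 3 inhibitor arms (filled points passed an adjusted p of 0.05). TNFSF10 lay between 1.19 and 1.50, TNFRSF9 between -0.77 and -0.50, and TNFRSF11B was near 0 with 10 µM CDD-2728 but above 0 in both 1 µM arms.

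Of the 10 members, 4 were called between the doses (40%), not far above the share of all tested genes. Between 10 and 1 µM CDD-2728, TNF and TNFRSF1B were higher at 10 µM and TNFRSF9 and TNFRSF11B lower. Over all tested genes 27.1% were called, 13.3% higher and 13.8% lower. TNFRSF11B fell by 0.63 ± 0.08 on the log2 scale (edgeR adjusted p = 5.2e-06) and TNFRSF1B rose by 0.65 ± 0.10 (6.31e-05), and both calls were kept under all 11 alternatives run for each. TNF met the filter's cutoff in both libraries only with 10 µM CDD-2728 and with CDD-3013, so its call is a description. It had a count ratio of 4.07 (95% counting interval 2.14 to 8.38) and a log2 change of 1.99 ± 0.55 (edgeR adjusted p = 0.00608). That call was lost without 1 µM replicate 1 (adjusted p = 0.0585) or 10 µM replicate 1 (0.102). TNFRSF9 fell by 0.26 ± 0.09 (edgeR adjusted p = 0.0155), a call lost with library totals (0.0765) and without 1 µM replicate 2 (0.0592) or 10 µM replicate 1 (0.179).

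The other 6 did not pass between the doses. The ligands TNFSF9 and TNFSF10 had log2 differences of 0.32 (95% interval 0.05 to 0.59, edgeR adjusted p = 0.062) and 0.31 (0.04 to 0.58, 0.0778). Both passed with library totals (0.021 and 0.0282) and without 1 µM replicate 1 (0.0145 and 0.0312), and TNFSF9 also with the stricter filter (0.0373). The differences were 0.46 (-0.23 to 1.15) for TNFSF15, 0.07 (-0.10 to 0.23) for TNFRSF1A and 0.33 (-0.01 to 0.66) for TNFRSF10A. For TNFRSF14 the interval ran from -0.63 to 0.40.

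The compounds could be set against each other at 1 matched dose, so 1 pair was compared. At 1 µM, 2 members were higher with CDD-3013 than with CDD-2728 and none lower, where 17.9% of tested genes were called, 9.85% higher and 8.02% lower. That share of all genes is uncertain, since the libraries of the 1 µM CDD-2728 group spread most. No member was lower at an unadjusted edgeR p under 0.05 or in DESeq2. The 2 were TNFSF9, with a log2 difference of 0.36 ± 0.13 (95% interval 0.09 to 0.63, edgeR adjusted p = 0.0497), and TNFRSF1A, with 0.23 ± 0.08 (0.06 to 0.40, 0.028). Both calls were lost with library totals (adjusted p = 0.103 and 0.108), when only the 4 libraries compared were fitted (0.122 and 0.0859), and without 1 µM CDD-2728 replicate 2 (0.479 and 0.218), CDD-3013 replicate 1 (0.105 and 0.1) or CDD-3013 replicate 2 (0.182 and 0.103). TNFSF9 was also lost in DESeq2 (0.0732) and with no filter (0.0542).

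For the other 8 a difference between the compounds was not called, and the intervals show the sizes that remain possible. They ran from -0.09 to 0.46 on the log2 scale for TNFSF10, from -0.04 to 0.39 for TNFRSF1B, from -0.32 to 0.06 for TNFRSF9 and from -0.29 to 0.04 for TNFRSF11B. Wider intervals were those of TNFSF15 (-0.45 to 0.97), TNFRSF10A (-0.49 to 0.21) and TNFRSF14 (-0.27 to 0.74). For TNF the count ratio was 2.34 (95% counting interval 1.15 to 5.07), but its log2 difference of 1.21 ± 0.58 did not pass (edgeR adjusted p = 0.147).

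**Figure D3:**
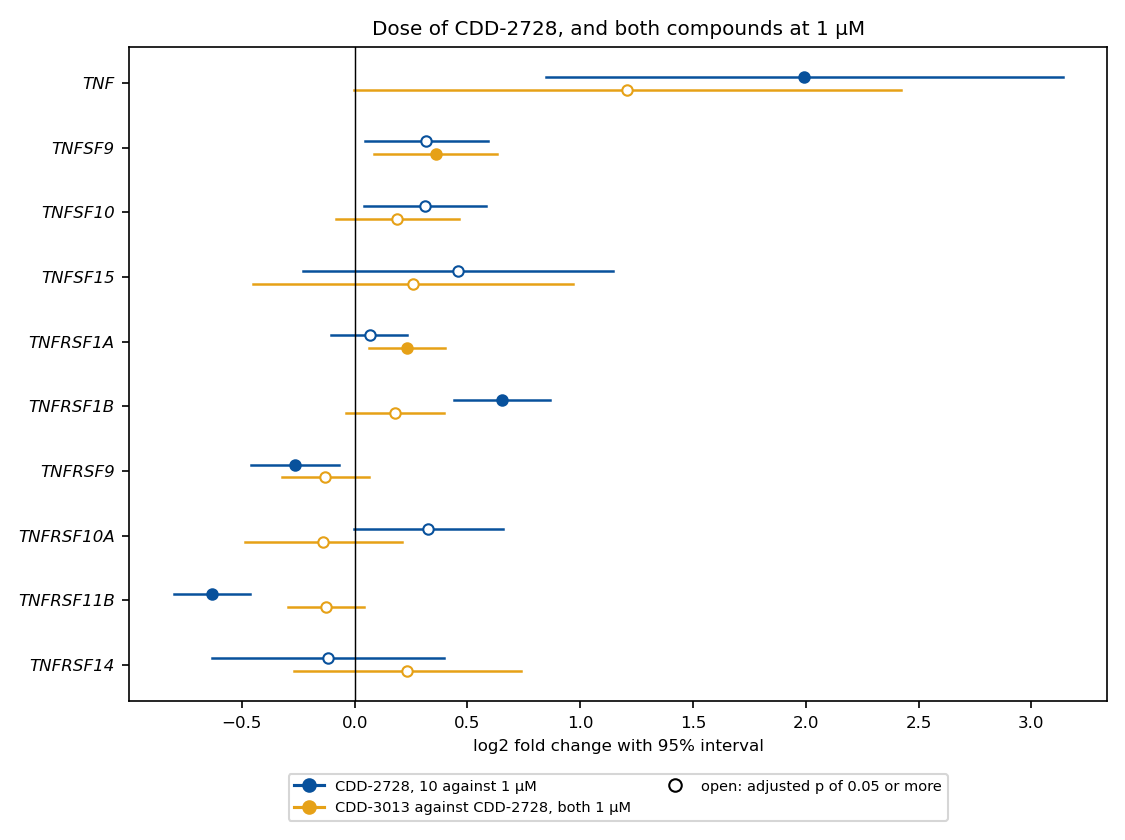
Log2 fold change of each member with its 95% interval between 10 and 1 µM CDD-2728, and between CDD-3013 and CDD-2728 at 1 µM (filled points passed an adjusted p of 0.05). TNFRSF1B and TNFRSF11B lie on opposite sides of 0 for dose, at 0.65 and -0.63, while the compound differences of both have intervals that include 0.

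The order of the members was read per exon length, as CPM per kb of exon, mean ± SD of 2 libraries. The divisor was the annotated exon length of each gene given above. Which transcripts these cells expressed was not measured, so ranks between genes depend on that choice. With vehicle TNFRSF1A led at 44.9 ± 2.7 CPM per kb, followed by TNFRSF11B at 12.6 ± 0.19 and TNFSF9 at 5.67 ± 0.31. Next came TNFRSF10A at 3.80 ± 0.60, TNFRSF1B at 2.08 ± 0.41, TNFSF10 at 1.22 ± 0.22 and TNFRSF9 at 1.13 ± 0.039, and the last 2 overlapped. TNFRSF14 at 0.336 ± 0.013 and TNFSF15 at 0.0334 ± 0.011 were lowest of those with reads. On this scale, the first TNF receptor and the decoy were thus highest among these members in vehicle cells.

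With IL1β the decoy TNFRSF11B took first place at 124 ± 10 CPM per kb, ahead of TNFRSF1A at 53.2 ± 4.4, and it kept first place in every inhibitor arm. TNFRSF9 came to the third place at 14.4 ± 0.039 CPM per kb, above TNFSF9 at 9.34 ± 0.059 and TNFRSF1B at 8.35 ± 0.64. In all 3 inhibitor arms TNFRSF1B held the third place, above TNFRSF9, at 17.6 ± 2.0 against 8.49 ± 0.56 CPM per kb with 10 µM CDD-2728. The 3 lowest with IL1β alone, TNFSF15 at 0.400 ± 0.105, TNF at 0.333 ± 0.048 and TNFRSF14 at 0.318 ± 0.021, overlapped their neighbours in the order.

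**Figure D4:**
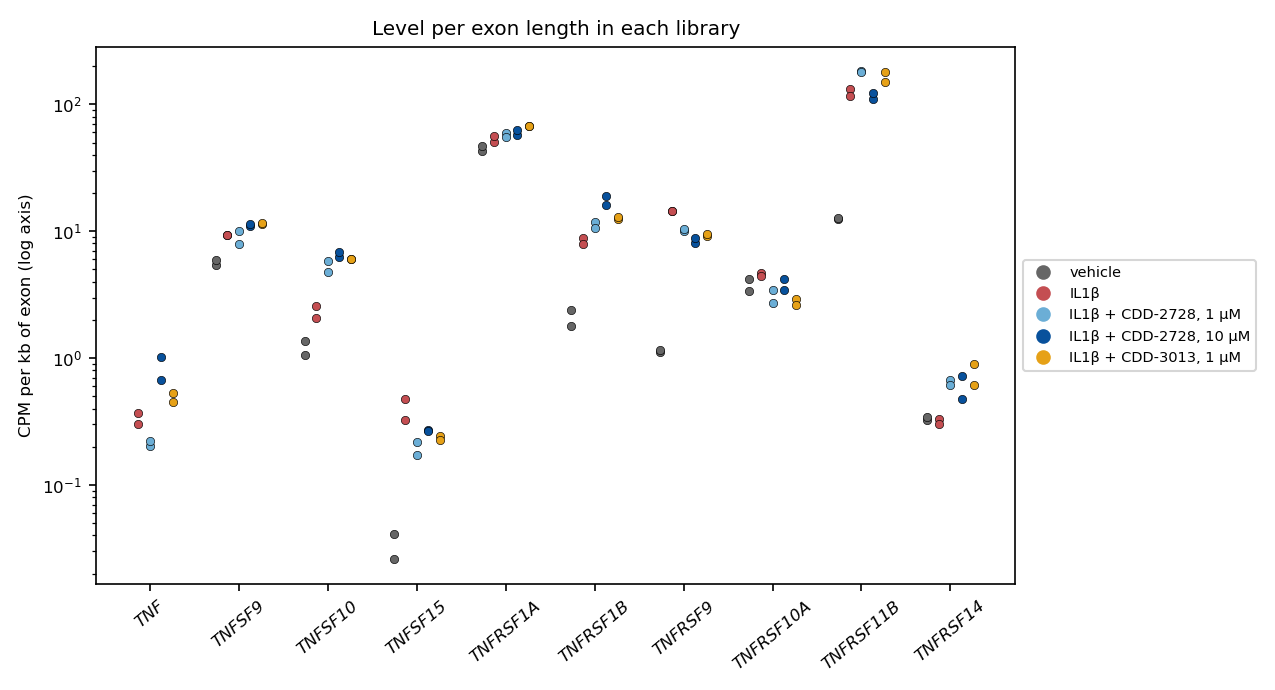
Level of each member in CPM per kb of exon (log axis) in every library, coloured by group; libraries with no TNF count are not drawn. TNFRSF11B moves from 12.6 CPM per kb in vehicle to 124 with IL1β, and TNFRSF1A stays between 44.9 and 67.2 across group means.

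Genes whose log2 CPM was most like that of each member over the 10 libraries are given as a description, since the points share libraries and treatments. Pearson's r was computed across libraries, without a test. TNFRSF9 was most like RIPK2 (r = 0.999), an adaptor kinase of NOD signalling, LYN (0.999), a Src-family kinase, and PIK3CD (0.998), a PI3-kinase subunit, and 500 genes had r over 0.9 with it. TNFRSF1B was most like the IκB-family gene BCL3 (0.995), the transcription factor gene CEBPB (0.995) and TMEM171 (0.994). TNFRSF11B was most like the metal transporter gene SLC39A8 (0.997), GBP1 (0.996) and DNAJB11 (0.995).

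Of the ligands, TNF was most like IER5 (0.974), MAFG (0.971) and CDKN1A (0.97), TNFSF9 like CDC42EP4 (0.979), BNIP3 (0.976) and CNN3 (0.974), TNFSF10 like KCNE4 (0.989), WFDC12 (0.988) and GNAI1 (0.984), and TNFSF15 like FMNL1 (0.994), EGLN1 (0.99) and ADORA2A (0.985). TNFRSF1A was most like ACADVL (0.982), SARS1 (0.978) and HLA-C (0.973). TNFRSF10A and TNFRSF14 had few close matches, with 4 and 13 genes over 0.9, led by KCNK6 (0.908), CAPRIN2 (0.905) and NAV1 (0.903) for TNFRSF10A and by AAR2 (0.936), ACP2 (0.919) and IFITM2 (0.915) for TNFRSF14.

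The partners of these members were followed in a list of 14 other ligands, of which 10 were tested, and 23 other receptors, of which 17 were tested. With IL1β, 6 other ligands rose and 1 fell (70% called, against 32.6% of all tested genes). Of the 10 tested ligands 5, LTA, LTB, TNFSF13B, TNFSF14 and TNFSF18, did not reach the filter's 0.559 CPM in both vehicle libraries, nor did 4 of the 17 receptors, TNFRSF4, CD40, NGFR and TNFRSF18. These 9 were tested only through groups that received IL1β, so the counts are a description. TNFSF14, the ligand of TNFRSF14, rose by 5.38 ± 0.65, TNFSF18, the GITR ligand, by 4.25 ± 0.34 and CD70, the ligand of CD27, by 2.42 ± 0.19 (edgeR adjusted p = 7.66e-11, 1.46e-12 and 1.22e-10). Among the other receptors 8 rose and 3 fell (64.7% called). CD40 rose by 4.19 ± 0.44 and TNFRSF10B, the second TRAIL death receptor, by 0.92 ± 0.09 (3.59e-10 and 3e-10), and RELT by 1.07 ± 0.11 (7.76e-09), all from edgeR. RELT shares 11.9% of its exon bases with AP000763.4 on the opposite strand, so its value has the same limit as that of TNFRSF14. With library totals the counts were 5 and 3 for the ligands and 8 and 5 for the receptors.

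With 1 µM CDD-2728, 1 other ligand rose and none fell (10% called), and 1 other receptor rose and 2 fell (17.6%), where 4.59% of all tested genes were called. No other ligand was lower at an unadjusted edgeR p under 0.05 or in DESeq2. TNFSF18 rose by 0.89 ± 0.14 over IL1β with 1 µM CDD-2728, fell by 1.19 ± 0.18 with 10 µM and rose by 0.87 ± 0.15 with CDD-3013 (edgeR adjusted p = 0.000292, 1.06e-05 and 6.34e-05). Its difference between doses was -2.08 ± 0.17 (edgeR adjusted p = 3.15e-09). With 10 µM CDD-2728, 3 other ligands rose and 2 fell (50% called) and 6 other receptors rose and 2 fell (47.1%, and 6 and 1 with library totals), against 31.5% of all tested genes.

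TNFSF14 rose by 1.44 ± 0.18 with 10 µM CDD-2728 (edgeR adjusted p = 1.38e-06) and LTB by 1.25 ± 0.27 (0.000919). TNFRSF12A, the TWEAK receptor, fell by 1.67 ± 0.10 with 10 µM (3.7e-10) and by 0.39 ± 0.09 with 1 µM (0.0202), each an edgeR adjusted p. TNFRSF13C, the BAFF receptor, rose by 1.79 ± 0.30 (edgeR adjusted p = 3.32e-05). With CDD-3013, 4 other ligands rose and none fell (40% called), and 3 other receptors rose and 1 fell (23.5%), against 36.4% of all tested genes. No other ligand was lower there at an unadjusted edgeR p under 0.05 or in DESeq2. LTB rose by 1.24 ± 0.28, CD70 by 0.48 ± 0.14 and CD40 by 1.02 ± 0.19, and TNFRSF19 fell by 1.18 ± 0.21 (edgeR adjusted p = 0.000953, 0.0086, 0.000163 and 0.000158). TNFRSF19 also fell by 0.86 ± 0.20 with 1 µM and 0.55 ± 0.19 with 10 µM CDD-2728 (edgeR adjusted p = 0.0122 and 0.0319). With IL1β against vehicle it fell by 0.88 ± 0.17 (edgeR adjusted p = 0.000308). The receptor split with CDD-3013 became 2 and 2 with library totals.

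**Figure D5:**
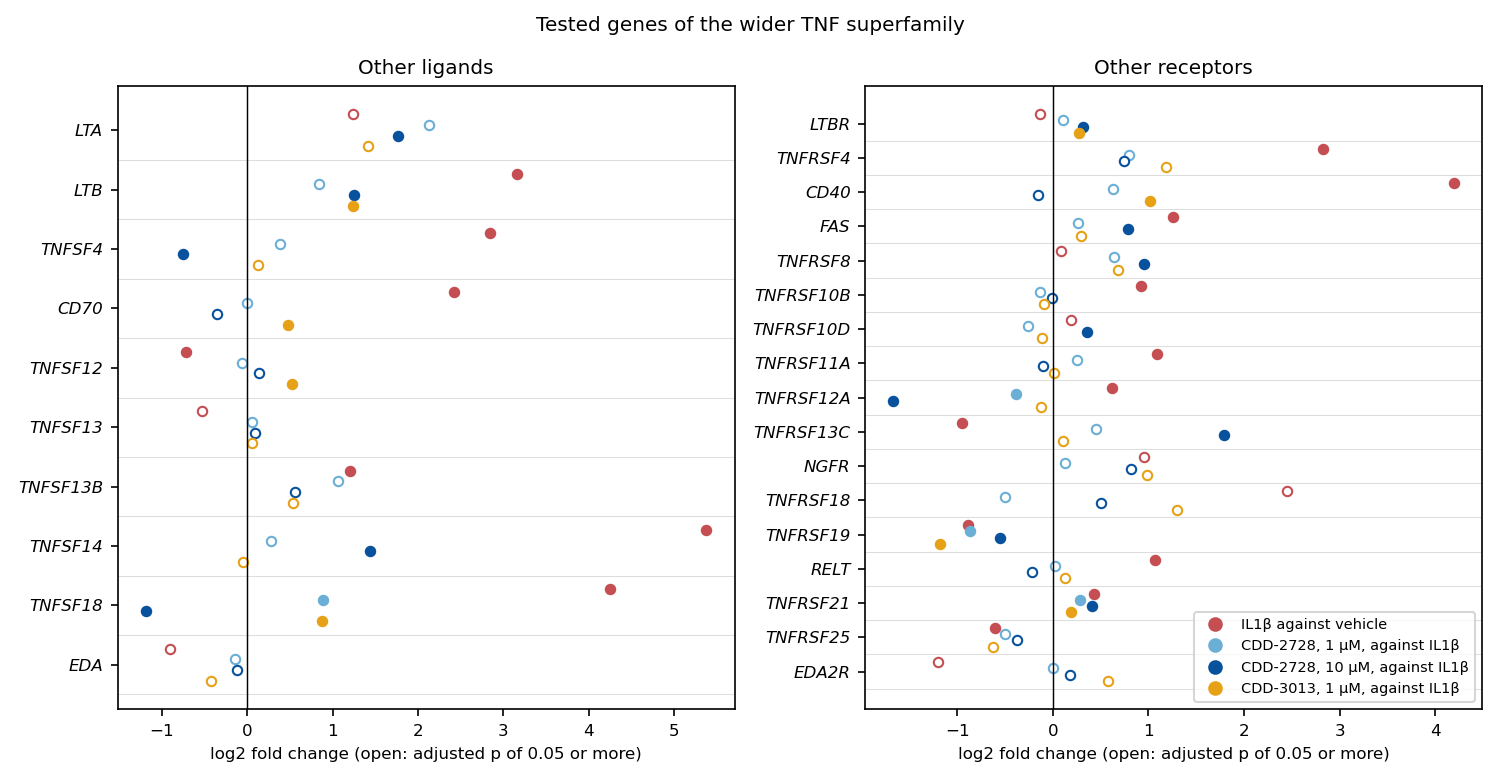
Log2 fold change of the tested other ligands (left) and other receptors (right) with IL1β against vehicle and with each inhibitor arm against IL1β (filled points passed an adjusted p of 0.05). TNFSF14 and TNFSF18 lie farthest right with IL1β at 5.38 and 4.25, and TNFRSF12A farthest left with 10 µM CDD-2728 at -1.67.

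Between the doses of CDD-2728, 1 other ligand rose and 2 fell (30% called) and 4 other receptors rose and 2 fell (35.3%), near the 27.1% of all tested genes. Besides TNFSF18 these included TNFSF4, the OX40 ligand, which fell by 1.13 ± 0.17, TNFSF14, which rose by 1.16 ± 0.17, and TNFRSF12A, which fell by 1.28 ± 0.10 (edgeR adjusted p = 2.41e-05, 3.04e-05 and 3.58e-08). Between the compounds at 1 µM, the other ligands CD70 and TNFSF12 were higher with CDD-3013 by 0.48 ± 0.14 and 0.59 ± 0.20 (edgeR adjusted p = 0.018 and 0.0297), 20% of the tested ligands against 17.9% of all tested genes. TNFSF12 shares 29.4% of its exon bases with a readthrough gene, so its value is uncertain. No other receptor was called in edgeR, 4 were higher at an unadjusted p under 0.05, and DESeq2 called 1.

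Downstream of the receptors, 38 of 39 listed adaptors and effectors were tested. With IL1β 21 rose and 2 fell, 60.5% of the list against 32.6% of all tested genes, where 17.6% were higher and 15.0% lower. With library totals 15 rose and 4 fell, where over all genes 1625 were higher and 4726 lower. The smallest adjusted p-values were those of TNFAIP3 (4.72 ± 0.09), BIRC3 (2.91 ± 0.09) and TNIP1 (2.68 ± 0.08), with edgeR adjusted p = 7.85e-22, 2.04e-19 and 6.48e-19. TRAF1, an adaptor that binds TNFRSF1B and TNFRSF9, fell against IL1β by 0.93 ± 0.12 with 1 µM CDD-2728, 1.85 ± 0.13 with 10 µM and 1.41 ± 0.12 with CDD-3013 (edgeR adjusted p = 2.16e-05, 1.41e-10 and 2.59e-08). BIRC3, an inhibitor of apoptosis, rose by 0.47 ± 0.08 with 1 µM and 0.76 ± 0.08 with 10 µM CDD-2728 (6.08e-05 and 4.24e-09). With CDD-3013 its change of 0.15 ± 0.08 did not pass (edgeR adjusted p = 0.0766). At 1 µM it was lower with CDD-3013 than with CDD-2728, by 0.32 ± 0.08 (edgeR adjusted p = 0.00233).

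In the adaptor list as a whole, 2 rose and 1 fell with 1 µM CDD-2728 (7.89% called, against 4.59% of all tested genes), and 5 rose and 6 fell with 10 µM (28.9% against 31.5%). With CDD-3013 11 rose and 10 fell (55.3% against 36.4%). The last split was 8 and 16 with library totals. Between doses 4 rose and 5 fell (6 and 4 with library totals), 23.7% of the list against 27.1% of all tested genes. Between compounds 6 were higher and 6 lower with CDD-3013 (3 and 11 with library totals), 31.6% against 17.9%. The proapoptotic gene BID rose by 0.55 ± 0.09 with CDD-3013 over IL1β (edgeR adjusted p = 6.36e-05) and fell by 0.54 ± 0.09 between 1 and 10 µM CDD-2728 (0.000148).

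The 8 listed genes of ligand and receptor shedding were all tested. With IL1β 6 rose and none fell (75% called, against 32.6% of all tested genes), with 7 higher and none lower at an unadjusted edgeR p under 0.05, 6 and none in DESeq2, and 4 and 1 with library totals. RHBDF2, a cofactor of the TNF-shedding protease, rose by 1.01 ± 0.09, and the protease gene ADAM17 itself by 0.61 ± 0.09 (edgeR adjusted p = 1.17e-09 and 7.19e-07). ADAM17 shares 12.3% of its exon bases with IAH1 on the opposite strand. The strand setting of the counting is not given, so the values of ADAM17 are uncertain. TIMP3, an inhibitor of ADAM17, rose by 0.55 ± 0.09 with IL1β and fell against IL1β by 0.63 ± 0.09 with 1 µM CDD-2728, 0.90 ± 0.09 with 10 µM and 0.82 ± 0.09 with CDD-3013 (edgeR adjusted p = 9.19e-06, 2.43e-05, 1.64e-08 and 2.48e-07). TIMP3 was the only shedding gene called with 1 µM CDD-2728 (12.5% of the list, where 4.59% of all tested genes were called). With 10 µM 2 were higher and 4 lower (75%, where 31.5% were called), and with CDD-3013 4 were lower (50%, where 36.4% were called). ADAM17 was among those lower, by 0.415 ± 0.09 with 10 µM CDD-2728 and 0.27 ± 0.09 with CDD-3013 (edgeR adjusted p = 0.000184 and 0.00722). Its cofactor gene RHBDF2 was higher with 10 µM, by 0.30 ± 0.09 (edgeR adjusted p = 0.00626). The inhibitor arms differ in how many genes were called over the whole table.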

How the data were processed

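Poly(A) RNA of 10 libraries of 12Z cells was sequenced, in 5 groups of 2 taken from the labels. The authors deposited whole-number read counts per gene ID, and every fit started from them. The build hg38 and the tools featureCounts, STAR and fastp are named per the submitters' processing notes, while versions, settings and strand were not given in the sources used here. Depth was 16312600 to 19479416 counts per library. Of 62750 IDs, 61918 matched a symbol with their version, 754 without it and 78 did not match. No column was left out.

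Counts were filtered with filterByExpr (minimum count 10), scaled with TMM and fitted over all 10 libraries with edgeR 4.0.16 (quasi-likelihood, 5 residual degrees of freedom) in R 4.3.3. Benjamini-Hochberg adjustment ran over 15740 tested genes, with a threshold of 0.05. SEs and 95% intervals are Wald values from the fitted variance, not below counting error. Groups at 0 counts were given an upper limit of 3 counts. Gene coordinates and exon lengths came from GENCODE 29 (GRCh38). Correlations used log2 CPM with a prior count of 2. Alternatives were relative log expression factors, library totals, no filter, a stricter filter (5 CPM in 2 libraries), DESeq2 1.42.0, only the 4 libraries compared, a replicate block, and each library left out in turn.

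All 10 members are named, with up to 3 called genes of each list per comparison by adjusted p (the text gives part of these), and the 3 genes most correlated with each member, without pseudogenes, antisense genes or clone names. Members and lists were chosen with earlier results of these data known.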

Additional observations from a re-analysis of the deposited data

Results flagged for a closer look

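For 3 members the changes against IL1β alone had opposite signs in both arms of a comparison, and the test of the difference between the arms itself passed. TNF differed between 10 and 1 µM CDD-2728 by 1.99 ± 0.55 on the log2 scale (edgeR adjusted p = 0.00608), with a change of 1.34 against IL1β at 10 µM and of -0.66, which did not pass, at 1 µM. TNFRSF11B differed between the same doses by -0.63 ± 0.08 (edgeR adjusted p = 5.2e-06), with a change of 0.53 at 1 µM and of -0.10, which did not pass, at 10 µM. TNFSF9 differed between CDD-3013 and CDD-2728 at 1 µM by 0.36 ± 0.13 (edgeR adjusted p = 0.0497), with changes of 0.30 and -0.06, neither of which passed. Of these, only the difference of TNFRSF11B passed under all 11 alternatives run for it. That of TNF is a description, since both libraries met the filter's cutoff only with 10 µM CDD-2728 and with CDD-3013.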

How the results depend on the processing

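The count of members called was 8 with IL1β (7 to 8 when each library was left out in turn) and 8 with CDD-3013 against IL1β (7 to 8). It was 6 with 1 µM CDD-2728 (3 to 7), 5 with 10 µM (3 to 4) and 4 between the doses (2 to 5). It was 3 with 1 µM CDD-2728 without IL1β replicate 1, IL1β replicate 2 or 1 µM CDD-2728 replicate 1, 3 with 10 µM without IL1β replicate 1, IL1β replicate 2 or 10 µM replicate 2, and 2 between the doses without 10 µM replicate 1. Between the compounds at 1 µM it was 2 (0 to 2), but 0 with library totals or when only the 4 libraries compared were fitted, and 1 with no filter, with DESeq2 or with the replicate block. Where 1 library was left, it was assumed to vary like the other groups. Whether the replicate numbers pair the samples was not settled. Deviations of samples with 1 number correlated at -0.40 to 0.26 over 10 group pairs, 5 of them over 0.1. Pairs with the 1 µM CDD-2728 group ran from -0.40 to -0.097, and the other pairs from -0.013 to 0.264. With the replicate block TNFRSF10A was not called with 1 µM CDD-2728 (adjusted p = 0.0544), nor TNFSF15 with CDD-3013 (0.0508), nor TNFSF9 between the compounds (0.0618), and it changed no other call of a member. Over all results of single members, 571 kept direction and side of the threshold, 47 lost the threshold and 12 passed it. The 5 that turned sign, each when 1 library was left out, were not called (ranges over libraries left out): TNFSF9 with 1 µM CDD-2728 against IL1β (-0.25 to 0.12), TNFRSF14 between doses (-0.45 to 0.16), TNFRSF1A between doses (-0.003 to 0.13), TNFRSF10A between compounds (-0.29 to 0.02) and TNFRSF14 between compounds (-0.074 to 0.485). The cause was not tested. With library totals the calls over all genes, higher and lower, were 3080 and 1913 instead of 2454 and 2505 (10 µM CDD-2728), 2288 and 3540 instead of 2994 and 2729 (CDD-3013), 2821 and 1398 instead of 2093 and 2169 (dose), and 1034 and 1965 instead of 1550 and 1262 (compounds). Between the compounds they were 945 and 873 of 14340 genes when only the 4 libraries compared were fitted. The libraries of the 1 µM CDD-2728 group spread most, so the shares of all genes called in its comparisons are uncertain. TNF, TNFSF15 and TNFRSF14 had no value with the stricter filter. With 6 to 32 counts per library that had any, TNF is limited by depth.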

Other observations

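Some genes of the family had no or almost no counts in these cells. CD40LG and FASLG had 0 of 176696130 counts over the 10 libraries, which allows up to 0.017 CPM. TNFRSF6B also had 0 counts, but 100% of its exon bases are shared with the readthrough gene RTEL1-TNFRSF6B on the same strand. Its level is therefore uncertain. TNFSF11, the RANK ligand bound by the decoy TNFRSF11B, had 1 count in 1 library.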
